A study of Mus musculus with 20 samples.

Results

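Mice given a tryptophan-deficient diet and broad-spectrum antibiotics together were compared with mice given neither, by RNA sequencing of the terminal ileum. The comparison took the 5 mice labelled for both treatments (TDD+ABX) and the 5 labelled as controls (CD), which are 10 of the 20 mice in the series. The other 10 mice had the diet alone (TDD, n = 5) or the antibiotics alone (CD+ABX, n = 5). All were female C57BL/6 mice, aged 7 weeks when the diets began. CD mice ate a defined amino acid diet with tryptophan for 3 weeks and drank water. TDD+ABX mice ate the same diet without tryptophan for 3 weeks and drank water with 2% sucrose and 5 antibiotics, namely vancomycin at 0.25 g/L and ampicillin, neomycin, gentamycin and metronidazole at 0.5 g/L each. The paper describes the antibiotics as a pre-treatment that began before the change to the deficient diet. It also describes a time on the control diet before that change. Sucrose is given only for the antibiotic water, so that the antibiotics and the sucrose cannot be told apart, and the 10 mice alone do not separate the diet from the antibiotics. Neither the cages nor the hour at which each group was collected is given in the sources used here, and the p-values measure the spread between these mice.

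Tryptophan is an essential amino acid that the gut takes up from food through transporters of the enterocyte brush border. Host enzymes turn part of it into kynurenine or serotonin, and gut bacteria turn part of it into indoles, several of which bind the aryl hydrocarbon receptor, a ligand-activated transcription factor. Bacteria also keep up the interferon-driven genes and the lymphocytes of the gut wall, and they change the bile acids that reach the ileum. Cells that lack an amino acid halt general translation and make more of the transcription factor ATF4, which switches on genes for amino acid synthesis and uptake.

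Total counts ranged from 36676963 to 50751245 in CD mice (median 45529527) and from 41198920 to 50576414 in TDD+ABX mice (median 48538795). Levels are given below as CPM, the counts scaled to a common library size by TMM, and values for 5 mice are listed in the order of their replicate numbers, which do not pair mice across groups. The tissue label was checked against genes chosen after their values had been seen. Fabp6 and Slc10a2, which define the distal ileum, lay at only 0.319 to 2.42 CPM and 1.38 to 3.88 CPM in CD mice, whereas Gata4, a factor of the proximal intestine, lay at 75.1 to 118 CPM in CD mice and 91.9 to 108 CPM in TDD+ABX mice (log2 fold change -0.02, q = 0.927). Lactase (Lct), an enzyme of the jejunum, lay at 1657 to 3125 CPM and 1714 to 2333 CPM in the same order (-0.35, q = 0.171). Osr2, a factor of the distal intestine, went against the other distal genes, at 92.6 to 110 CPM in CD mice and 104.6 to 124.6 CPM in TDD+ABX mice (0.15, q = 0.262). CD mouse 5 stood apart. The summed level of 6 digestive enzymes of the exocrine pancreas was 158.6 CPM in that mouse and 0.436 to 1.30 CPM in the other 4 CD mice, with 0.517 to 0.681 CPM in TDD+ABX mice. It also had the highest level among CD mice for 164 of the 306 genes called lower below (53.6%), so that counts of all lower genes are given with and without it, and those of a list where they differ without it. CD mouse 2 had the lowest summed level of 9 enterocyte genes, 11843 CPM, where the other CD mice had 20330 to 23708 CPM.

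Both treatments together changed 459 of 16306 genes tested, or 2.81%. Of these, 153 were higher in TDD+ABX mice (0.938%) and 306 lower (1.88%). A call needed both q under 0.05 and at least a 2-fold change, where q is the Benjamini-Hochberg adjusted p-value of edgeR's quasi-likelihood test over all genes tested. Without the fold change limit 3556 of the 16306 genes passed, 1677 higher and 1879 lower. Counts of a list at a q under 0.05 below are to be read against these numbers. Counts of called genes in a list are to be read against the 0.938% higher and 1.88% lower. The median log2 fold change of all genes was -0.02. At least 4-fold changes were found for 37 of the higher and 75 of the lower genes, and at least 16-fold changes for 4 and 20, and without CD mouse 5 there were 53 lower genes past 4-fold and 5 past 16-fold. Of those 20, 15 had over 50% of their summed CD level in CD mouse 5, and they included amylases, elastases, trypsins and carboxypeptidases of the pancreas. Of the 4 higher, Ciart and Fabp6 are described below, and Gm10639 and Gm13502, predicted genes named here after their values were seen, had levels of at most 2.85 CPM. Without CD mouse 5, 146 genes were called higher, of which 138 were among the 153, and 242 lower, of which 225 were among the 306.

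The 5 TDD+ABX mice lay wholly above the 5 CD mice in CPM for 120 of the 153 higher genes and wholly below them for 204 of the 306 lower genes. Over all genes tested, 996 (6.11%) were separated upward and 1116 (6.84%) downward. Without CD mouse 5, 191 of the 242 lower genes were separated, against 1238 of 16274 genes tested (7.61%). The means of the CD and TDD+ABX groups lay 32.3 apart on log2(CPM + 4) across the tested genes, with p = 0.00794 in a two-sided exact permutation test, the smallest p that 5 mice against 5 allow. With 1 mouse left out at a time, this distance was 31.7 to 34.0.

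**Figure D1:**
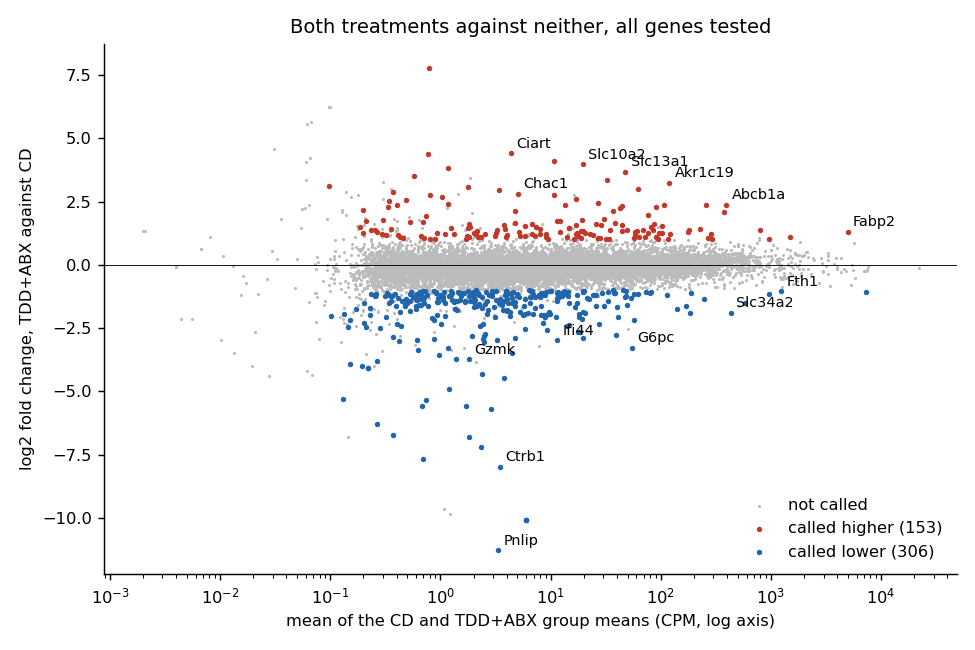
Mean level of each gene tested (x axis, mean of the CD and TDD+ABX group means in CPM, log axis) against its fitted log2 fold change, TDD+ABX against CD (y axis), with 153 genes called higher in red, 306 called lower in blue and the rest in grey. The lowest points, Pnlip and Ctrb1 among them, are pancreatic genes of CD mouse 5, and Fabp2 and Fth1 lie at the abundant end.

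Genes of the circadian clock changed in both directions. Of 20 clock genes tested, 8 were called higher and 2 lower, where 0.938% and 1.88% of all genes were, and the median log2 fold change of the list was 0.67. Ciart, a repressor of the clock's activators (chromosome 3, 95878503 to 95882251, GRCm38), lay at 0.276, 0.396, 0.299, 0.734 and 0.253 CPM in CD mice and at 6.61, 9.51, 7.5, 8.04 and 10.3 CPM in TDD+ABX mice (log2 fold change 4.42, standard error 0.56, q = 3.83e-05). Every treated mouse lay well above every control. Dbp, a transcription factor that carries clock output to metabolic genes, lay at 11.7, 18.5, 11.2, 21.8 and 5.07 CPM and 99.7, 126, 78.8, 122 and 122 CPM in the same order (log2 fold change 3.01, standard error 0.50, q = 0.000445). Per2, a core repressor, lay at 12.9, 16.1, 13.2, 18.1 and 13 CPM in CD mice and at 64.4, 91.8, 57, 72.3 and 82.9 CPM in TDD+ABX mice (log2 fold change 2.33, standard error 0.23, q = 3.15e-06), with the CD mice close together. Per3 (2.46, q = 5.94e-05), Hlf (2.36, q = 0.00037) and Tef (1.98, q = 0.000181), a period gene and a pair of factors related to Dbp, rose as well, and so did Cry2 (1.2, q = 2.58e-05) and Usp2 (1.57, q = 1.39e-05). Both lower clock genes were separated too. Arntl, the activator also called Bmal1, lay at 32.8 to 58.5 CPM in CD mice and 12 to 25.7 CPM in TDD+ABX mice (-1.44, q = 0.000731), and Nfil3, the repressor that competes with Dbp for its sites, at 10.6 to 19.9 CPM in CD mice and 1.86 to 4.28 CPM in TDD+ABX mice (-2.3, q = 0.00038). Clock (-0.11, q = 0.463), Nr1d1 (0.35, q = 0.259) and Cry1 (0.26, q = 0.397) were not called. Between 8 and 9 clock genes were called higher, and 2 lower, under every alternative with the fold change limit. Clock genes vary with the hour, and the hour at which each group was collected is not given. The treatments and the hour therefore cannot be told apart for these genes, and the part of the hour was not tested.

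The letters of clock control were looked for in the promoters of these genes, taken from RefSeq on GRCm38.p6 as the 250 bases before and 50 bases after each start. Both strands were searched, and promoters were found for 17 of the 20 clock genes and for 12115 of the 16306 genes tested. The E-box CACGTG, which the clock's activators bind, was in 5 of the 17 (29.4%) and in 10.8% of all promoters. The D-box TTANGTAA, which Dbp and Nfil3 bind, was in 1 (5.88%) and in 2.0% of all promoters. The genes with the E-box were Ciart, Tef, Per1, Cry1 and Bhlhe41, of which Per1, Cry1 and Bhlhe41 were not called. Dbp, Per2, Cry2, Usp2 and Hlf rose and were not among the genes with either match. The stretches around the matches in 3 genes that rose are shown because Ciart and Tef hold the E-box and Per3 the D-box, in capitals, each 5′ to 3′ on the strand of its gene.
Ciart, chr3:95882314-95882369, minus strand: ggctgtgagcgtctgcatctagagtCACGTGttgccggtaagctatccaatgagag
Tef, chr15:81802521-81802576, plus strand: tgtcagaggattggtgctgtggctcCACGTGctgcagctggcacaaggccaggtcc
Per3, chr4:151044838-151044895, minus strand: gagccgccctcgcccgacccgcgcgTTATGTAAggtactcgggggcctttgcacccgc
The matches lie 116 bases before the start in Ciart, 127 in Tef and 205 in Per3. They are matches of letters only. Over the genes called higher, the E-box was in 11 of 107 promoters (10.3%), and over those called lower in 17 of 195 (8.72%).

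The glucocorticoid response list held 3 higher genes and 1 lower gene of 14 tested, where 0.938% and 1.88% of all genes were called. The median of the list was 0.50 (log2). Its lower gene was Pdk4 (-1.19), which lost its call under 8 of 29 alternatives and is also in the fasting list below. Fkbp5, a chaperone partner of the glucocorticoid receptor, lay at 21.9, 29.8, 17.9, 46.6 and 36 CPM in CD mice and at 157, 184, 178, 133 and 98.2 CPM in TDD+ABX mice (log2 fold change 2.3, standard error 0.25, q = 7.31e-06). The groups did not overlap. The metallothioneins Mt1 and Mt2, small metal-binding proteins whose sequences are close enough to share reads, rose by 1.38 (q = 0.00132) and 2.11 (q = 0.00242) on the log2 scale. Tsc22d3 (-0.07, q = 0.835) and Klf9 (-0.06, q = 0.815), which glucocorticoids also induce, were not called.

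**Figure D2:**
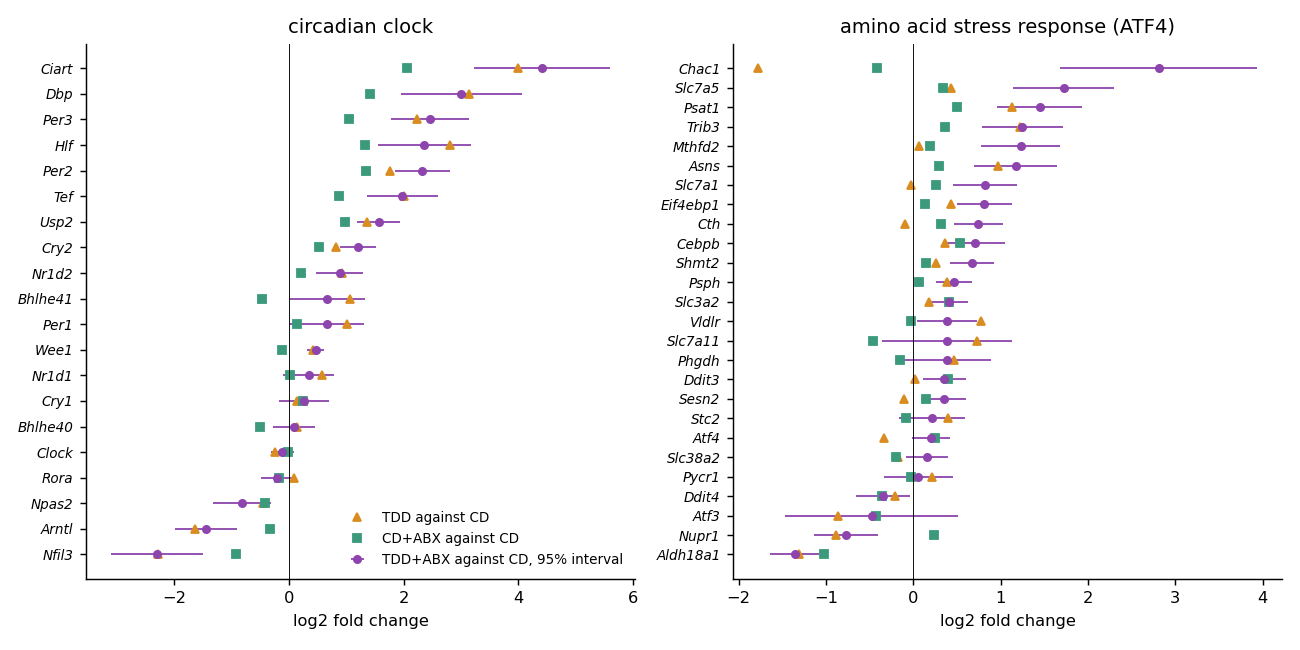
Log2 fold change (x axis) of each clock gene tested (left, 20 genes) and each gene of the amino acid stress response tested (right, 26 genes), with purple circles and 95% intervals for TDD+ABX against CD, orange triangles for TDD against CD and green squares for CD+ABX against CD, which share the CD mice. Ciart leads the clock genes at 4.42 and Chac1 the stress genes at 2.81, where the diet alone gave -1.78.

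Genes of the amino acid stress response rose in part. Of 26 genes tested, 6 were called higher and 1 lower, and 14 were higher at a q under 0.05 without the fold change limit. The median log2 fold change was 0.40. Chac1, which breaks down glutathione and is a target of ATF4 (chromosome 2, 119351229 to 119354381), lay at 1.93, 2.4, 0.738, 0.619 and 0.695 CPM in CD mice and at 5.48, 2.54, 22.9, 9.13 and 4.5 CPM in TDD+ABX mice (log2 fold change 2.81, standard error 0.54, q = 0.00124). TDD+ABX mouse 3 was highest and TDD+ABX mouse 2 lay just above the highest CD mouse. Slc7a5, the transporter of large neutral amino acids, tryptophan included, lay at 5.29, 8.93, 4.17, 4.01 and 6.06 CPM in CD mice and at 11.8, 10.8, 31.4, 16.2 and 23.7 CPM in TDD+ABX mice (log2 fold change 1.72, standard error 0.28, q = 0.00029), again with mouse 3 highest. Psat1, an enzyme of serine synthesis, rose by 1.45 (q = 0.000272), Mthfd2, a mitochondrial folate enzyme, by 1.23 (q = 0.000619), Asns, asparagine synthetase, by 1.17 (q = 0.00133) and Trib3, a pseudokinase that dampens the response, by 1.25 (q = 0.000651). Aldh18a1, the first enzyme of proline and ornithine synthesis, fell from 381, 292, 437, 296 and 375 CPM in CD mice to 134, 119.6, 146, 168 and 127 CPM in TDD+ABX mice (log2 fold change -1.36, standard error 0.13, q = 2.45e-06), with no overlap. The 6 higher and 1 lower calls were also the counts without CD mouse 5.

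In the promoters of this list the ATF4 element TGATGNAA, searched on both strands, was in 8 of 23 (34.8%), against 3.01% of all promoters. Among the genes called higher it was in 7 of 107 (6.54%). Of the 8 genes of the list with a match, Trib3, Chac1 and Asns were called higher. Atf3, Pycr1, Slc7a11, Nupr1 and Vldlr were not called. Slc7a5, Psat1 and Mthfd2 rose and were not among the 8. The stretches of Chac1 and Asns are shown because both genes rose and both hold a match before the start, in capitals, on the reverse strand in Chac1 and the forward strand in Asns.
Chac1, chr2:119351024-119351081, plus strand: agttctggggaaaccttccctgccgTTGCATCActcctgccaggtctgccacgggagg
Asns, chr6:7693210-7693257, minus strand: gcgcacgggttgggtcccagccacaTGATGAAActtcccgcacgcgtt
The aminoacyl-tRNA synthetases, many of them further ATF4 targets, stayed under the fold change limit. None of 20 was called, 11 were higher at a q under 0.05, and the median was 0.24. Of 84 cytosolic ribosomal proteins tested, none was called by edgeR, 75 were higher at a q under 0.05 and 36 were separated upward, and the median of the list was 0.32 (log2).

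A few transporters and enzymes of the absorptive surface rose. Slc13a1, the apical sulfate transporter (chromosome 6, 24088283 to 24168092), lay at 5.24, 8.54, 4.91, 10.1 and 5.41 CPM in CD mice and at 79.1, 113, 86.9, 41.8 and 119.6 CPM in TDD+ABX mice (log2 fold change 3.69, standard error 0.34, q = 2.32e-06). TDD+ABX mouse 4 was the lowest treated mouse and still lay above every control. Abcb1a, the efflux pump P-glycoprotein, lay at 122, 108, 137, 153 and 115 CPM in CD mice and at 629, 748, 669, 491 and 748 CPM in TDD+ABX mice (log2 fold change 2.37, standard error 0.22, q = 1.62e-06). Its rise in mean CPM was among the 5 largest of the genes called. Fabp2, the fatty acid binding protein of enterocytes, lay at 2783, 2146, 2716, 3636 and 2965 CPM and 7332, 8046, 7021, 4518 and 8347 CPM in the same order (log2 fold change 1.31, standard error 0.18, q = 7.33e-05). It was the only called gene of 17 for fat absorption. Enpep, a brush border peptidase, averaged 950.3 ± 197 CPM in CD mice and 2034 ± 385 CPM in TDD+ABX mice (SD, n = 5 each) (log2 fold change 1.1, standard error 0.16, q = 9.71e-05), and was the only called gene of 16 for digestion and sugar uptake.

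Of 13 genes for amino acid and peptide uptake at the brush border, 3 were called higher and none lower, and the median of the list was 0.24 (log2). Slc6a19, the main carrier of neutral amino acids including tryptophan, lay at 533, 289, 385, 625 and 388 CPM in CD mice and at 1138, 1353, 1099, 836 and 1325 CPM in TDD+ABX mice (log2 fold change 1.37, standard error 0.21, q = 0.00014). CD mouse 2 was lowest, and the groups did not overlap. The peptide carrier Slc15a1 (1.0, q = 0.00195) and Slc3a1, a subunit of the carrier for basic amino acids and cystine (1.0, q = 0.000137), stood at the fold change limit. Both fell below it without CD mouse 2 or 5 or TDD+ABX mouse 2 or 5, which left 1 call in the list each time. Slc34a2, the apical phosphate transporter, moved the other way, from 642, 289.8, 906, 698 and 855 CPM in CD mice to 123, 169, 251, 203 and 168 CPM in TDD+ABX mice (log2 fold change -1.89, standard error 0.36, q = 0.00135).

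Of 10 genes for ileal bile acid handling, 2 were called higher and 1 lower. Slc10a2, the sodium-dependent bile acid carrier of the ileum (chromosome 8, 5083219 to 5105351), lay at 1.46, 3.88, 1.38, 2.62 and 2.44 CPM in CD mice and at 36.3, 45.5, 58.3, 13.2 and 31.8 CPM in TDD+ABX mice (log2 fold change 3.97, standard error 0.48, q = 2.59e-05). Fabp6, the bile acid binding protein inside ileal cells, lay at 0.413, 2.42, 0.319, 0.711 and 2.0 CPM in CD mice and at 14.4, 22.1, 19.8, 3.34 and 40.8 CPM in TDD+ABX mice (log2 fold change 4.08, standard error 1.06, q = 0.0104). TDD+ABX mouse 4 was lowest for both genes, and no treated mouse reached down to the controls. With limma-voom Fabp6 was not called (q = 0.087). Nr0b2, the repressor SHP that bile acid signalling induces, was lower (-1.5, q = 0.0314), a call that was lost with no filter on low counts and without CD mouse 4 or 5 or TDD+ABX mouse 1, 2, 3 or 4. Both rising genes define the distal ileum, and the part of the place of sampling along the gut in their rise was not tested.

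**Figure D3:**
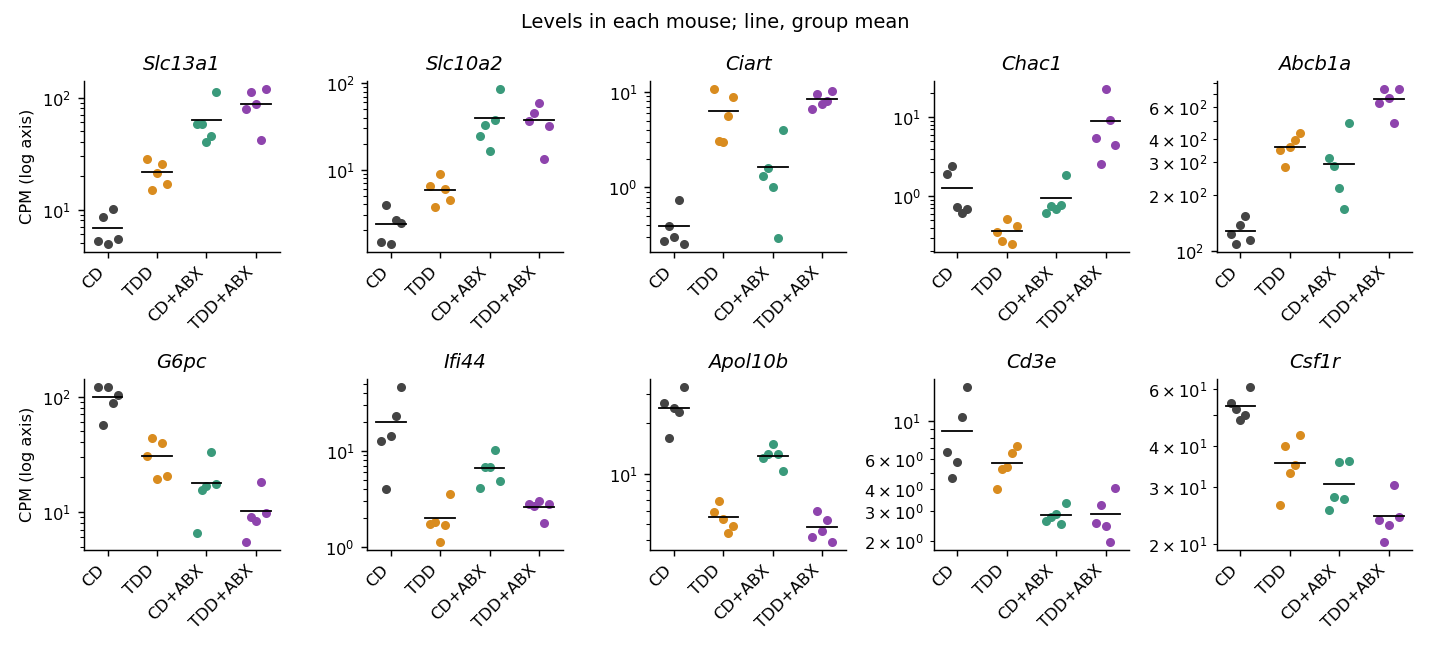
Level in each mouse (y axes, CPM, log axes) of 10 named genes in the CD, TDD, CD+ABX and TDD+ABX groups, with 1 point per mouse and a line at the group mean. For all 10 genes the 5 TDD+ABX mice lie apart from the 5 CD mice, above them in the upper row and below them in the lower row.

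Genes for the metabolism of foreign compounds and for detoxification were 8 higher and 1 lower of 35 tested, with 16 higher at a q under 0.05 and a median of 0.36. Without CD mouse 2 or 5 or TDD+ABX mouse 4, 2 were called lower. Ces1f, a carboxylesterase (chromosome 8, 93256236 to 93279747), lay at 5.18, 8.63, 3.91, 4.43 and 6.44 CPM in CD mice and at 76, 73.4, 79.6, 18.5 and 47.3 CPM in TDD+ABX mice (log2 fold change 3.37, standard error 0.41, q = 2.7e-05). Ces1g, its neighbour in the same gene cluster, lay at 1.49, 0.628, 0.798, 0.574 and 0.379 CPM and 5.6, 7.21, 7.05, 3.7 and 6.3 CPM in the same order (log2 fold change 2.96, standard error 0.31, q = 6.01e-06). Both sets of treated mice lay above their controls. Akr1c19, an aldo-keto reductase, averaged 22.9 ± 5.85 CPM in CD mice and 217 ± 64.8 CPM in TDD+ABX mice (SD, n = 5 each) (log2 fold change 3.25, standard error 0.28, q = 1.37e-06). The pseudogene Marcksl1-ps4 lies inside the Akr1c19 locus on the same strand, so its rise (3.07) can come from the same reads. Aldh1a1, which makes retinoic acid, rose by 1.40 (q = 0.000137), the glutathione transferase Gsta3 by 1.55 (q = 3.98e-05) and Cyp2b10 by 1.10 (q = 0.0247). Cyp2c29 rose from 0.248, 0.0465, 0.359, 0.0688 and 0.0421 CPM in CD mice to 4.59, 0.641, 2.27, 1.49 and 2.04 CPM in TDD+ABX mice (log2 fold change 3.82, standard error 0.75, q = 0.00144). Cyp3a44 fell from 2.45, 1.16, 7.14, 0.964 and 1.16 CPM in CD mice to 0.165, 0.18, 0.207, 0.179 and 0.239 CPM in TDD+ABX mice (log2 fold change -3.72, standard error 0.60, q = 0.000297), with CD mouse 3 far above the other controls. Members of the Ces1, Gsta, Akr1c, Cyp2c and Cyp3a families have close paralogs, between which reads could have been split. Acox2, a peroxisomal oxidase of branched fatty acids and bile acid intermediates, averaged 2.75 ± 0.769 CPM in CD mice and 18.9 ± 2.57 CPM in TDD+ABX mice (SD, n = 5 each) (log2 fold change 2.78, standard error 0.23, q = 8.89e-07).

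Cholesterol synthesis rose as a group with small steps. Of 24 genes tested, 22 were higher at a q under 0.05, 7 of them by at least 2-fold, and 18 were separated upward, and the median of the list was 0.80 (log2). Lss, which closes the sterol ring, lay at 22.4, 35.1, 20.9, 22 and 25.6 CPM in CD mice and at 66.4, 69.6, 47.7, 70.5 and 60.7 CPM in TDD+ABX mice (log2 fold change 1.32, standard error 0.15, q = 1.01e-05). CD mouse 2 was the highest control and still lay below every treated mouse. Mvk (1.35, q = 2.29e-05), Fdps (1.17, q = 2.06e-05), Cyp51 (1.11, q = 2.39e-05), Sqle (1.09, q = 4.9e-05) and Mvd (1.05, q = 0.000653), enzymes along the same route, rose as well. The number called higher was 5 to 10 over the alternatives. A sterol element, TCACNCCAC on either strand, was in 1 of 16 promoters of the list (6.25%) and in 1.4% of all promoters. The gene with the match, Hmgcs1, was not called. The element was in 4 of 107 promoters of genes called higher (3.74%) and in 3 of 195 of genes called lower (1.54%).

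Among fasting and fat oxidation genes, 3 of 20 were called lower and none higher, with a median of -0.24. Acaa1b, a peroxisomal thiolase, lay at 16.4, 10.4, 24.2, 10.5 and 7.96 CPM in CD mice and at 2.33, 2.06, 3.08, 7.03 and 3.16 CPM in TDD+ABX mice (log2 fold change -1.97, standard error 0.35, q = 0.000654), with TDD+ABX mouse 4 the highest treated mouse. Pdk4, which turns off pyruvate oxidation (-1.19, q = 0.0316), was called near the threshold. Leaving out any of CD mice 3 and 4 and TDD+ABX mice 1, 2 and 5 left 1 call in the list. G6pc, the last step of glucose release, fell from 122, 56.2, 122, 88.3 and 103 CPM in CD mice to 5.5, 8.99, 8.35, 18.3 and 9.72 CPM in TDD+ABX mice (log2 fold change -3.27, standard error 0.40, q = 2.59e-05).

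Of 8 iron genes tested, 2 were called lower and none higher, with a median of -0.07. At a q under 0.05, 3 were lower and 1 was higher. Fth1, the heavy chain of the iron store ferritin, lay at 1862, 1239, 2011, 1615 and 1595 CPM in CD mice and at 728, 824, 769, 918 and 775 CPM in TDD+ABX mice (log2 fold change -1.05, standard error 0.12, q = 1.32e-05). Slc40a1, the iron exporter ferroportin, lay at 11.3, 11.8, 11.6, 10.3 and 15.1 CPM and 4.32, 4.32, 5.13, 6.85 and 5.46 CPM in the same order (log2 fold change -1.2, standard error 0.12, q = 3.15e-06). Neither pair of groups overlapped. Without CD mouse 3 the log2 fold change of Fth1 was -0.98, under the fold change limit.

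Interferon-stimulated genes were lower in part. Of 39 tested, 9 were called lower and none higher, 18 were lower at a q under 0.05 and the median log2 fold change was -0.75. Gbp6, a guanylate-binding protein that attacks vacuoles of intracellular microbes (chromosome 5, 105270702 to 105293698), lay at 27.1, 11.7, 30.7, 37.1 and 51.2 CPM in CD mice and at 6.67, 8.17, 8.58, 4.96 and 7.64 CPM in TDD+ABX mice (log2 fold change -2.13, standard error 0.27, q = 3.91e-05). Ifi44 lay at 12.6, 4.03, 14.1, 23.1 and 47.1 CPM in CD mice and at 2.77, 2.64, 2.98, 1.75 and 2.78 CPM in TDD+ABX mice (log2 fold change -2.97, standard error 0.48, q = 0.00034). CD mouse 2 was the lowest control and CD mouse 5 the highest for both, and the groups did not overlap. Gbp3 (-1.07, q = 7.33e-05), Ifi47 (-1.3, q = 0.000108), Iigp1 (-1.04, q = 0.000111) and Igtp (-1.21, q = 0.00325), GTPases that interferon gamma induces, were lower, and so were the nucleic acid sensors Oas2 (-1.87, q = 0.00512) and Zbp1 (-1.94, q = 0.000452) and Mx2 (-1.03, q = 0.0249). Isg15 (-0.62, q = 0.244) and Irf7 (-0.41, q = 0.287) were not called. The summed level of the list was 1601, 794, 2049, 2034 and 2624 CPM in CD mice and 1335, 1056, 1452, 1132 and 1373 CPM in TDD+ABX mice, with CD mouse 2 the lowest of all. Without CD mouse 5, 5 genes of the list were called lower (median -0.63), and without CD mouse 2, 16 were.

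The interferon element, GAAA and GAAA with any 2 bases between them, on either strand, was in 29 of 195 promoters of genes called lower (14.9%), in 2 of 107 of genes called higher (1.87%) and in 4.04% of all promoters. Within the interferon list it was in 19 of 27 (70.4%). Of these 19 genes only Gbp3 and Igtp were called lower, and others such as Ifit1, Isg15 and Stat2 were not called. The other called genes of the list, Gbp6, Ifi44, Ifi47, Iigp1, Zbp1, Oas2 and Mx2, were not among the 19. The stretches of Gbp3 and Igtp are shown because both genes fell and both hold the element in capitals close to the start, with a pair of overlapping matches in Gbp3.
Gbp3, chr3:142559974-142560033, plus strand: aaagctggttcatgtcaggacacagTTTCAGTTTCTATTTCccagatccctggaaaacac
Igtp, chr11:58199497-58199555, plus strand: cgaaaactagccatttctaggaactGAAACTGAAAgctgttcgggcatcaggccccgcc
The match begins 34 bases before the start in Igtp and the first in Gbp3 45 bases before it.

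Antigen presentation by MHC class I was lower by small steps. Of 11 genes, 3 were called lower and 10 were lower at a q under 0.05, with a median of -0.71. Psmb9, an immunoproteasome subunit, lay at 34.8, 29.3, 39.2, 43.4 and 54.6 CPM in CD mice and at 17.1, 19.1, 17.6, 17.6 and 21.2 CPM in TDD+ABX mice (log2 fold change -1.12, standard error 0.14, q = 2.59e-05). Psmb8, a further subunit (-1.15, q = 6.05e-05), and Nlrc5, the activator of class I genes (-1.13, q = 0.00113), were the other calls, and without CD mouse 5 only Psmb8 of the 3 was called. Of 11 MHC class II genes none was called by edgeR, 6 were lower at a q under 0.05 and the median was -0.65. Their summed level was 1153, 1174, 1200, 1181 and 1306 CPM in CD mice and 664, 837, 716, 549 and 921 CPM in TDD+ABX mice, which did not overlap.

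T cell and cytotoxic lymphocyte genes were lower. In bulk tissue, fewer cells of a type and less RNA per cell cannot be told apart. Of 16 T cell and cytotoxic lymphocyte genes, 12 were called lower and none higher, and the list had a median of -1.49 (log2). Cd8b1, a chain of the CD8 coreceptor, lay at 2.01, 1.63, 2.12, 6.26 and 10.4 CPM in CD mice and at 0.331, 0.581, 0.331, 0.298 and 1.15 CPM in TDD+ABX mice (log2 fold change -3.07, standard error 0.58, q = 0.00107). Gzmk, a granule protease, lay at 1.27, 1.21, 0.619, 5.51 and 8.17 CPM and 0.31, 0.34, 0.186, 0.199 and 0.215 CPM in the same order (log2 fold change -3.73, standard error 0.57, q = 0.000168). CD mice 4 and 5 were the highest for both genes, and the lowest controls lay above every treated mouse. Cd3e, a chain of the T cell receptor complex, fell by less, from 6.58, 4.63, 5.79, 10.5 and 15.9 CPM in CD mice to 2.54, 3.24, 2.44, 1.97 and 4.05 CPM in TDD+ABX mice (log2 fold change -1.61, standard error 0.28, q = 0.00046). Gzma (-2.05), Gzmb (-2.05) and Prf1 (-1.57), the killing machinery, and Itgae (-1.28), which holds lymphocytes in the epithelium, were lower too. The summed level of the list was 95.8, 66.2, 71.9, 178 and 281 CPM in CD mice and 41.7, 59.9, 39.9, 41.7 and 59.2 CPM in TDD+ABX mice. Without CD mouse 5, 10 of the 16 were called lower (median -1.18). Of 9 regulatory T cell genes 1 was called lower, the checkpoint receptor Ctla4 (-1.4, q = 0.0109). Foxp3, which defines these cells, lay at 0.248, 0.326, 0.559, 0.161 and 0.168 CPM in CD mice and at 0.124, 0.22, 0.248, 0.139 and 0.527 CPM in TDD+ABX mice (log2 fold change -0.24, standard error 0.47, q = 0.768), and the groups overlapped.

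Of 27 chemokines and receptors, 9 were called lower and none higher, with a median of -0.55. Ccl5, which T cells make and follow, lay at 13.1, 8.38, 6.72, 37.9 and 52.4 CPM in CD mice and at 3.51, 6.45, 3.33, 3.78 and 5.0 CPM in TDD+ABX mice (log2 fold change -2.43, standard error 0.45, q = 0.00101). Cxcl9, an interferon-induced ligand of Cxcr3, lay at 8.51, 6.77, 7.38, 7.48 and 11.1 CPM in CD mice and at 1.76, 3.4, 2.52, 1.39 and 2.15 CPM in TDD+ABX mice (log2 fold change -1.87, standard error 0.23, q = 2.23e-05). Its receptor Cxcr3 (-1.42, q = 0.00107) and its sister ligand Cxcl10 (-1.56, q = 0.00352) fell as well, and so did the eosinophil attractant Ccl24 (-2.12, q = 0.00029). Ccl3, Ccl4, Ccl8 and Cxcl2 were lower at levels of at most 1.47 CPM in any mouse. Without CD mouse 5, 8 of the list were called lower.

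Of 15 macrophage and dendritic cell genes, 2 were called lower and 11 were lower at a q under 0.05, with a median of -0.55. Csf1r, the receptor that keeps macrophages alive, lay at 54.2, 52.2, 48.3, 49.9 and 61.1 CPM in CD mice and at 23.8, 20.4, 23, 30.4 and 24.2 CPM in TDD+ABX mice (log2 fold change -1.12, standard error 0.13, q = 1.32e-05). Adgre1, the F4/80 antigen (-1.02, q = 9.72e-05), was the other, and it fell short of 2-fold without CD mouse 5 or TDD+ABX mouse 2 or 4. The summed level of the list was 254, 264, 256, 258 and 318 CPM in CD mice and 170.2, 160.2, 176, 153 and 165 CPM in TDD+ABX mice, with no overlap. B cell and follicle genes gave no call by edgeR of 16, and their median of -0.39 was -1.59 without TDD+ABX mouse 5 and 0.30 without CD mouse 3. Their summed level was 17.9, 123, 173, 16.2 and 18 CPM in CD mice and 25.2, 45.3, 15.7, 10.6 and 179.9 CPM in TDD+ABX mice, so that single mice of both groups were high.

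**Figure D4:**
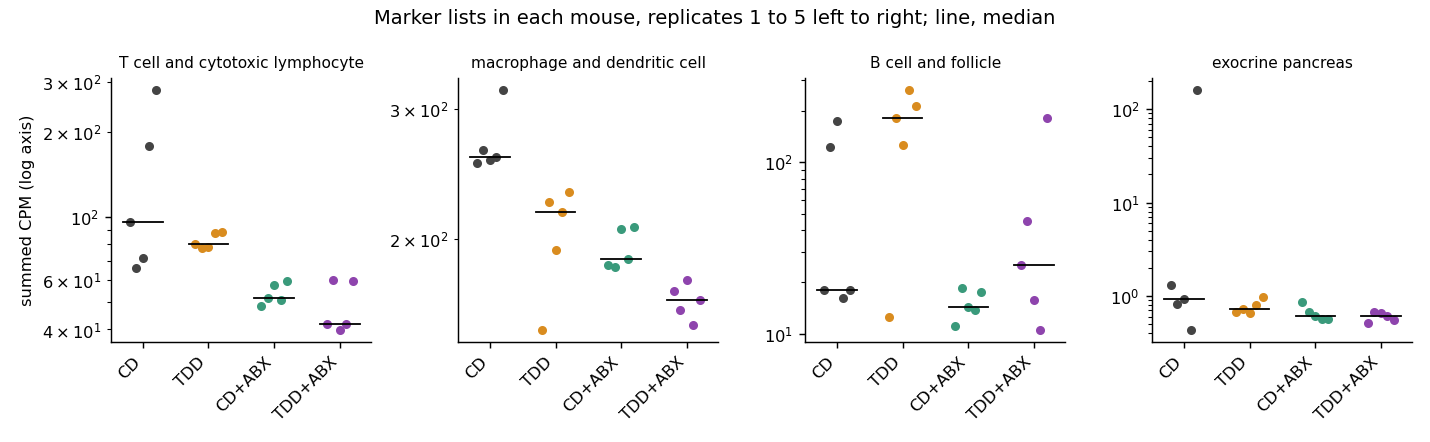
Summed level of 4 marker lists in each mouse (y axes, CPM, log axes) by group, with replicates 1 to 5 from left to right and a line at the median. T cell and macrophage sums of the TDD+ABX mice lie below those of the CD mice, B cell sums overlap, and CD mouse 5 stands alone at 158.6 CPM for the exocrine pancreas.

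The marker lists of other cells were read in the same way. No gene was called by edgeR among 9 Paneth, 8 goblet, 8 tuft, 9 enteroendocrine, 5 crypt stem cell, 10 smooth muscle, 12 enteric neuron and glia, 6 fibroblast, 6 endothelial, 6 adipocyte, 2 mast cell and 5 red blood cell genes tested. Summed fibroblast levels were 404 to 613 CPM in CD mice and 283 to 342 CPM in TDD+ABX mice, which did not overlap, and 3 of the 6 genes were lower at a q under 0.05, with 2 called without CD mouse 4. Smooth muscle sums were 904 to 3576 CPM and 1027 to 2887 CPM in the same order, and proliferation genes gave no call of 19, with a median of 0.04. Their part in the changes above was not tested. Of the 6 pancreatic genes 5 were called lower, Pnlip, Ctrb1, Cpa1, Cela2a and Cpb1, and Pnlip was at 0 in every TDD+ABX mouse. Without CD mouse 5, 2 of the 6 could be tested and neither was called, and without TDD+ABX mouse 1, 2, 3 or 4, 3 were called.

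The apolipoprotein L family, whose members are linked to interferon and cell death, fell in clear steps. Of 10 genes tested, 6 were called lower and none higher, and the list had a median of -1.56 (log2), and 6 were called lower without CD mouse 5. Apol10b (chromosome 15, 77583819 to 77596125) lay at 26.5, 16.3, 24.5, 23.2 and 33 CPM in CD mice and at 4.2, 5.96, 4.57, 5.31 and 3.93 CPM in TDD+ABX mice (log2 fold change -2.36, standard error 0.17, q = 2.37e-07). Apol10a, the most abundant member called, lay at 945, 641, 832, 835 and 1041 CPM and 271, 402, 290, 309 and 251 CPM in the same order (log2 fold change -1.5, standard error 0.17, q = 1.04e-05). No treated mouse came within reach of a control for either gene. Apol11b (-2.93, q = 7.06e-06), Apol11a (-2.35, q = 4.37e-05), Apol7c (-1.63, q = 2.82e-05) and Apol6 (-1.76, q = 0.0114) were lower, and the pseudogene Apol10c-ps fell with its neighbours (-2.77, q = 1.19e-06). Apol9a (0.04, q = 0.96) and Apol9b (-0.2, q = 0.797) were not called. These paralogs are close enough to share reads.

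Epithelial defence genes gave 2 lower calls of 15, with a median of -0.38. Lypd8, a glycoprotein that keeps flagellated bacteria from the epithelium, lay at 959.6, 897, 1307, 1309 and 2164 CPM in CD mice and at 592, 617, 652, 637 and 511 CPM in TDD+ABX mice (log2 fold change -1.14, standard error 0.21, q = 0.000848). Reg3g, a lectin that kills Gram-positive bacteria, lay at 178, 196, 219, 143 and 339 CPM in CD mice and at 44, 63.5, 101, 57.7 and 55.1 CPM in TDD+ABX mice (log2 fold change -1.74, standard error 0.57, q = 0.0372). The groups did not overlap for either gene, with CD mouse 5 highest in both, and without that mouse neither was called. Without CD mouse 3 or TDD+ABX mouse 1, 2, 4 or 5, 1 of them was. Of the 4 gasdermin C genes, pore-forming proteins of the gut epithelium, Gsdmc4 (-1.68, q = 0.0262) and Gsdmc (-2.06, q = 0.0408) were called lower. Gsdmc4 lay at 31, 69.6, 34.4, 51.7 and 121 CPM in CD mice and at 34.8, 9.15, 9.59, 10.4 and 32.4 CPM in TDD+ABX mice, with TDD+ABX mice 1 and 5 inside the range of the controls. Neither was called without CD mouse 5 or TDD+ABX mouse 2, 3 or 4, and 1 was called without CD mouse 1 or 3.

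Several further genes fell strongly. Adad2, a double-stranded RNA binding protein best known from testis (chromosome 8, 119612747 to 119616924), lay at 1.6, 0.838, 2.89, 1.74 and 1.81 CPM in CD mice and at 0.103, 0.18, 0.124, 0.179 and 0.144 CPM in TDD+ABX mice (log2 fold change -3.58, standard error 0.31, q = 9e-07). Lect2, a secreted hepatokine and leukocyte attractant, lay at 4.49, 2.79, 5.25, 4.52 and 4.95 CPM in CD mice and at 0.558, 0.861, 0.434, 1.03 and 0.407 CPM in TDD+ABX mice (log2 fold change -2.73, standard error 0.32, q = 1.25e-05). Both were low in all treated mice. Slc22a13, an organic anion transporter (-2.79, q = 0.000478), Paqr9 (-3.29, q = 0.00111) and Cblif, gastric intrinsic factor for vitamin B12 (-3.36, q = 9.71e-05), fell from CD means of 3.36, 2.14 and 1.14 CPM.

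Of the enzymes of tryptophan use, only Ido1 was called. Of 10 kynurenine pathway genes 2 were higher and 2 lower at a q under 0.05, where 1677 and 1879 of all 16306 genes were. The median of the list was -0.27. Without TDD+ABX mouse 5, 2 were called and the median was -0.61, and without CD mouse 3 it was -0.08. Ido1, the interferon-induced enzyme that opens the tryptophan ring (chromosome 8, 24584136 to 24597009), lay at 18.4, 3.98, 22.7, 11 and 8.69 CPM in CD mice and at 3.91, 2.48, 3.6, 3.98 and 2.37 CPM in TDD+ABX mice (log2 fold change -1.99, standard error 0.38, q = 0.00127). CD mouse 2 lay level with the highest treated mice, and the other 4 controls lay above all of them. Kynu, which cleaves kynurenine, lay at 2.5 to 2.75 CPM in CD mice and 1.18 to 2.01 CPM in TDD+ABX mice (-0.87, q = 0.00069), short of 2-fold. Of 6 serotonin genes none was called by edgeR, but 3 were higher and 1 was lower at a q under 0.05. Their summed level was 1117 to 1403 CPM in CD mice and 1405 to 2056 CPM in TDD+ABX mice. The groups did not overlap, but the highest control lay just below the lowest treated mouse. Tph1, which makes serotonin's precursor in enteroendocrine cells, lay at 4.71, 7.45, 8.44, 7.41 and 10.7 CPM in CD mice and at 13.5, 6.51, 12.6, 8.7 and 6.58 CPM in TDD+ABX mice (log2 fold change 0.31, standard error 0.25, q = 0.419), and the groups overlapped. Ddc, the next enzyme, was lower (-0.76, q = 0.000192), without reaching 2-fold. Most of the summed level of the serotonin list came from members other than Tph1 and Ddc.

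Of 9 genes of the aryl hydrocarbon receptor and its targets, 2 were called lower, with a median of -0.02. Cyp1a1, the receptor's classical target, had 5, 36, 35, 5 and 2 counts in CD mice and 3, 0, 0, 2 and 0 counts in TDD+ABX mice (q = 0.0053), so that it was near the floor in both groups. Cyp1b1, a second target, lay at 5.37, 7.93, 6.64, 3.83 and 2.44 CPM in CD mice and at 1.61, 1.84, 2.46, 3.54 and 3.47 CPM in TDD+ABX mice (log2 fold change -1.02, standard error 0.27, q = 0.0106), with overlap, and lost its call when CD mouse 2 or 3 was left out, or TDD+ABX mouse 1 or 2. The receptor's own repressor Ahrr was lower (-0.92, q = 0.00242) and Nqo1, which other factors also drive, was higher (0.66, q = 0.000351), both short of 2-fold. Ahr itself (0.03, q = 0.857) did not pass the test. The receptor's core letters TNGCGTG were in 4 of 195 promoters of genes called lower (2.05%), in 9 of 107 of genes called higher (8.41%), in 1 of 7 of the receptor list (14.3%) and in 8.62% of all promoters.

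Immunoglobulin variable segments, which differ from mouse to mouse with the clones present, gave 10 lower calls of 89 kappa and 7 of 92 heavy chain segments tested and none higher, with medians of -0.48 and -0.41, and 8 kappa segments without CD mouse 5. Many segments are almost alike in sequence, and reads could have been placed on the wrong one. No gene of 13 for IgA and plasma cells or 4 for type 17 lymphocytes was called by edgeR, nor any of 20 for tight junctions, with medians of -0.41, -0.22 (-0.28 to 0.06 over the alternatives) and -0.13. Over the 22 lists without a call other than ribosomal proteins, 66 of 216 genes had an unadjusted p under 0.05 by edgeR. The same was true of 5608 of all 16306 genes tested. The lists were picked for holding no call, so that this comparison cannot show whether they held an excess of such genes. Single lists differed, with 16 of 20 aminoacyl-tRNA synthetases and 8 of 11 MHC class II genes, but 1 of 19 proliferation and 0 of 10 smooth muscle genes. In the 22 lists DESeq2 and limma-voom called none.

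**Figure D5:**
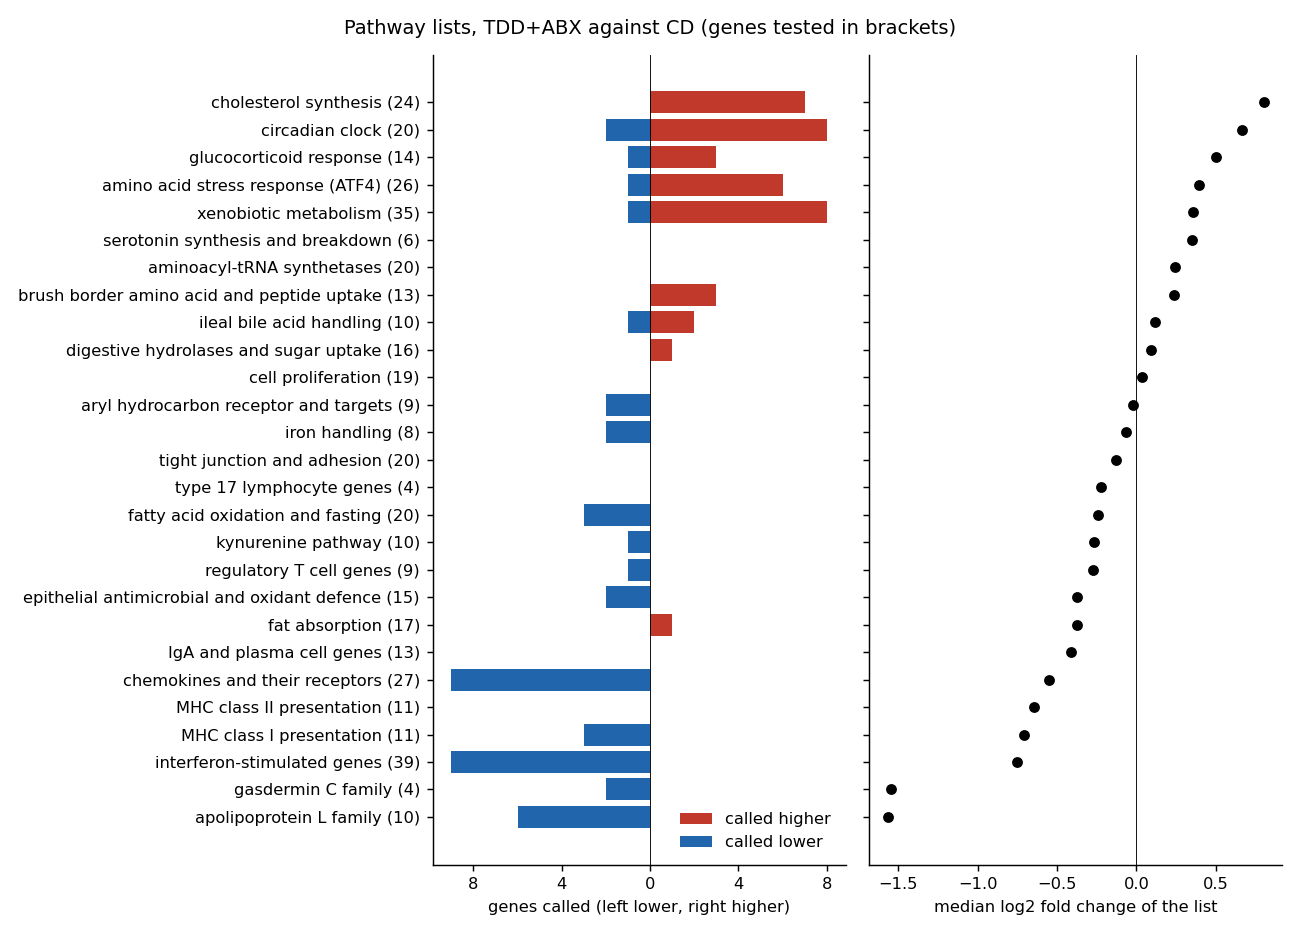
Genes called in each pathway list, TDD+ABX against CD (left, bars to the left for lower and to the right for higher), and the median log2 fold change of the list (right, points), with the number of genes tested in brackets. Clock and xenobiotic genes have the most higher calls, 8 each, interferon and chemokine genes the most lower calls, 9 each, and the apolipoprotein L list has the lowest median, -1.56.

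The joint change was set beside each treatment alone. Against the same 5 CD mice, the diet alone called 298 genes (1.83%) and the antibiotics alone 367 (2.25%), where both called 459. These comparisons share their control mice, and their values are given side by side without a test of likeness. Ciart had log2 fold changes of 4.0 with the diet, 2.06 with the antibiotics and 4.42 with both. Dbp (3.13, 1.42 and 3.01), Per2 (1.76, 1.34 and 2.33) and Acox2 (2.26, 0.92 and 2.78) are given in the same order. Slc10a2 had 1.32, 4.07 and 3.97, Fabp2 0.08, 1.20 and 1.31, and Slc13a1 1.65, 3.20 and 3.69. Abcb1a had 1.52, 1.22 and 2.37, and Lss 0.74, 0.71 and 1.32. Slc34a2 had -1.87, -0.22 and -1.89, and Cd8b1 -2.33, -4.07 and -3.07. Chac1 had -1.78, -0.42 and 2.81, so that its rise is seen with both treatments and with neither alone.

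TDD+ABX mice were then compared directly with each single treatment. Adding antibiotics to the diet (TDD+ABX against TDD) called 265 genes (1.63%), and adding the diet to antibiotics (TDD+ABX against CD+ABX) called 50 (0.307%). The second count was 27 with replicate number as a block and 98 with DESeq2. Abcb1a exceeded the TDD mice (0.85, q = 0.0124) and the CD+ABX mice (1.15, q = 0.0099), and Ces1g did as well (1.18, q = 0.0113, and 1.14, q = 0.0494). Adad2 was lower than in TDD mice (-1.63, q = 0.00312) and in CD+ABX mice (-1.68, q = 0.0105). Slc10a2 differed from TDD mice (2.65, q = 0.0014) and not detectably from CD+ABX mice (-0.09, q = 0.943), whereas Acox2 differed from CD+ABX mice (1.86, q = 0.000468) and not detectably from TDD mice (0.51, q = 0.109). The difference between these contrasts was not tested.

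No gene was set apart in TDD+ABX mice from all 3 other groups at once by edgeR after adjustment (0%), in a test that takes the largest of the 3 p-values. At an unadjusted p under 0.05 and at least 2-fold 26 genes were, limma-voom set apart none and DESeq2 6. These 6 were Adad2 and Cyp3a44, which were lower, and Ces1g, Chac1, Mthfd2 and Slc7a5, which were higher (edgeR q from 0.156 to 0.396). The joint change departed from the sum of the single changes for 4 genes (0.0245%). The departure was 5.01 for Chac1, 4.98 for Gzmk, -1.92 for Fkbp5 and -4.80 for the kappa segment Igkv15-103, on the log2 scale, each with q = 0.0496 by edgeR's quasi-likelihood test. Gzmk fell by -3.55 with the diet and -5.15 with the antibiotics. It lay at only 0.0584 to 0.357 CPM in all TDD, CD+ABX and TDD+ABX mice. It was thus near the floor in all 3 groups, with little room for a further fall, and its departure cannot be read as a joint effect. Left-out mice gave 0 to 12 such genes, and none was called with RLE scaling, no filter, a filter of 5 mice, the block or limma-voom, against 51 with DESeq2.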

How the data were processed

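Poly-A RNA from the terminal ileum of 20 mice in 4 groups of 5 was sequenced. The authors assigned reads to mouse transcripts (GRCm38, also called mm10) with kallisto 0.44.0 and deposited estimated counts per gene, without normalization, in which reads that match several transcripts are shared out. The counts per gene stood within 2% of the sum of the transcripts for 13703 of 13915 genes compared, and at 2 times that sum for 156, none of them among the genes named by the rule below. The comparison and the gene lists were chosen with earlier results of these data known.

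Counts were rounded, scaled by TMM and tested with edgeR 4.0.16 (quasi-likelihood, robust, 4 groups in 1 fit, R 4.3.3) for the 16306 of 35204 genes that reached 0.5 CPM in 1 mouse or more. The study names iDEP.91 but no test within it. Calls needed a Benjamini-Hochberg q under 0.05 and at least 2-fold. Named genes were, among called genes whose mice did not overlap and whose higher group averaged at least 1 CPM, the 12 with the highest and the 12 with the lowest log2 fold change, the 5 with the largest rise and the 5 with the largest fall in CPM, up to 4 called genes of each list by q (or the gene with the lowest q where none was called), genes set apart from all other groups, and Ido1, Tph1, Cyp1a1, Foxp3, Reg3g and Chac1. Immunoglobulin segments and genes without a symbol were left out of the first rules, and other genes were named as members of the lists. Single values of a few list members are not reported here. limma 3.58.1, DESeq2 1.42.0, other scalings, filters, the replicate block and fits without 1 mouse were alternatives. Counts were simulated for TDD+ABX against CD over 16306 genes. Of the genes changed by 4-fold, 98 of 100 were called, 89 of 100 changed by 2-fold had a q under 0.05, and 2 unchanged genes were called. The changed genes were drawn from those with a mean of at least 1 CPM, and no mouse was made to stand apart as CD mouse 5 does. Recovery at lower levels was not tested. Positions are those of GENCODE M21 on GRCm38, and promoters those of RefSeq on GRCm38.p6. The TPM values the authors deposited per transcript were not used.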

Additional observations from a re-analysis of the deposited data

Results flagged for a closer look

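In groups of 5 mice, a mouse was singled out where its gap to the nearest other mouse took up more than 0.71 of the group's range. Of 254 groups looked at, 31 met this, where chance gives about 1 in 20, or 12.7, for independent groups of normally distributed values. Levels were not log-transformed here, and some sums hold genes that were also looked at singly. The 12.7 is therefore only a rough guide.

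Many belonged to 3 mice. CD mouse 5 was the highest control for the pancreatic genes Ctrb1 (34.4 CPM), Cela2a (34.06 CPM), Cpb1 (21.43 CPM) and Cpa1 (23.35 CPM) and for the pancreatic sum (158.6 CPM), for the macrophage and dendritic cell sum (318.2 CPM), Cblif (2.421 CPM) and Gsdmc (0.9052 CPM). CD mouse 2 was lowest for the enterocyte sum (11840 CPM) and for Zg16, a goblet cell lectin (1598 CPM), and highest for the tuft cell sum (79.56 CPM), the tuft cell factor Pou2f3 (3.094 CPM) and the neuropeptide Vip (25.75 CPM). TDD+ABX mouse 4 was lowest for Akr1c19 (101.9 CPM), Marcksl1-ps4 (1.552 CPM), Aldh1a1 (202.0 CPM), Ifi44 (1.751 CPM) and the endothelial sum (87.03 CPM), and highest for Acaa1b (7.026 CPM) and Vip (11.34 CPM).

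CD mouse 3 was highest for Cyp3a44 (7.142 CPM) and Paqr9 (5.666 CPM), and CD mouse 1 for Gsta3 (4.904 CPM). TDD+ABX mouse 5 was highest for Cry2 (38.9 CPM), Mt2 (103.2 CPM), Nr0b2 (3.83 CPM), Lep (0.1436 CPM) and the B cell sum (179.9 CPM), TDD+ABX mouse 3 for Pdk4 (23.71 CPM), and TDD+ABX mouse 1 for the mast cell protease Mcpt1 (9.61 CPM) and the mast cell sum (13.21 CPM).

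For 4 genes the effect of antibiotics on the tryptophan-deficient diet differed from that on the control diet (edgeR's quasi-likelihood test of the difference, q = 0.0496 each). The difference was 5.01 for Chac1, -1.92 for Fkbp5, 4.98 for Gzmk and -4.80 for Igkv15-103 on the log2 scale. Gzmk was near the floor in the TDD, CD+ABX and TDD+ABX mice.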

How the results depend on the processing

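The 459 genes called became 418 with both groups fitted alone, 461 with RLE scaling, 459 with upper-quartile scaling, 505 with no filter, 401 with a filter of 5 mice, 467 with DESeq2 and 445 with limma-voom. Without the fold change limit, 3556 genes passed (1677 higher, 1879 lower), 2505 against TDD, 268 against CD+ABX, 2342 for TDD against CD and 2060 for CD+ABX against CD. DESeq2 called 98 genes against CD+ABX, 51 for the departure from additivity and 6 set apart from all groups, and the departure fell to 0 with RLE scaling, no filter, a filter of 5 mice and limma-voom. The cause was not tested.

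Leaving out single mice, the joint comparison gave 388 genes (without CD mouse 5) to 529 (without TDD+ABX mouse 5), with 145 to 174 higher and 242 to 376 lower. TDD+ABX against TDD gave 163 (without TDD+ABX mouse 1) to 421 (without TDD+ABX mouse 5), with 165 without TDD+ABX mouse 3 and 400 without TDD mouse 1. TDD+ABX against CD+ABX gave 25 (without CD+ABX mouse 4) to 59 (without CD mouse 2), with 32 without CD+ABX mouse 3 and 33 without TDD+ABX mouse 1. The departure from additivity gave 0 to 12. Of 84 called named genes, 63 kept their call under every alternative and 21 lost it under at least 1. Only Mcpt1 (-0.4192 to 1.149; 0.7592 with all mice) and Foxp3 (-0.6756 to 0.1432; -0.2439 with all mice) changed sign among the named genes, without TDD+ABX mouse 1 and CD mouse 3, and neither was called.

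Replicate numbers did not pair the mice. The deviations of CD and TDD+ABX mice with the same number correlated at -0.343 to 0.159, and 0 of 5 correlated best with their own number. With a replicate block, 423 genes were called (152 higher, 271 lower), 27 against CD+ABX and 0 for the departure from additivity.

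Total counts ranged from 36676963 to 58662617 over all mice. Genes near 0 in CD mice have uncertain fold changes.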
